A study of Mus musculus with 18 samples.

Results

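The 200 probes described here had their highest signal in the fetal mouse testis at E15.5 (embryonic day 15.5) when stages were compared by the median of their arrays, with every other stage median at least 3.37-fold lower. They were taken from 34232 probes whose identifiers start with ASMM9PARTA, out of 37820 probes in all. For each probe the median of the 3 arrays of a stage was taken, and its score was the E15.5 median minus the highest of the other 5 stage medians, on the log2 scale. Of 13141 probes with an E15.5 median of at least 9, 659 had a score of at least 1, which is 2-fold, and the 200 highest scores were kept. The same minimums with another stage in place of E15.5 were met by 1537 probes for E12.5, 111 for P7, 130 for P14, 243 for P21 and 2129 for the adult. No table used here pairs these identifiers with genes, so the probes are named by identifier, and neither their roles nor the markers of testis cells could be looked up.

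The samples were whole testes of mice at E12.5, E15.5, postnatal days 7, 14 and 21 (P7, P14, P21) and adult age, with 3 arrays per stage. The labels give no strain, genotype or number of animals and name no treatment. RNA freed of ribosomal RNA was copied by random priming, labelled with Cy3 and hybridised to 1-colour Agilent arrays for lncRNAs and mRNAs. Values are the authors' deposited signals, read here as log2 because of their range, as the log base is not given. All folds rest on that reading. No label says that replicates came from separate animals, so each p-value reflects the scatter among these arrays alone. That scatter may be technical.

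As background, E15.5 falls in the period when male germ cells, then called gonocytes or prospermatogonia, stop dividing and stay arrested until after birth. During this arrest the germ cells acquire new DNA methylation, and the small RNAs called piRNAs direct part of it to transposons. Around them Sertoli cells enclose the testis cords and secrete anti-Müllerian hormone, and fetal Leydig cells produce androgen. After birth the gonocytes give rise to spermatogonia, which are the most advanced germ cells at P7, and meiotic cells, round spermatids and mature sperm follow. In RNA from a whole testis, fewer cells of a type and less RNA per cell cannot be told apart.

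A pair of arrays stood apart from their stages and bear on the values below. E12.5 replicate 2 had a median of 9.11 over the 200 members, against 7.72 and 7.70 in E12.5 replicates 1 and 3, while the medians over all probes were 7.98 in replicate 2 and 7.91 and 7.90 in the others. P21 replicate 1 lay below both other P21 arrays for 105 members, above both for 74 and between them for 21. The matching shares of all probes were not counted, so whether this pattern is particular to the members is not shown. Its median was 6.74 over members, against 7.10 and 6.82 in P21 replicates 2 and 3. Over all probes it was 7.91, against 7.93 and 7.94. Because the rule takes medians, a single such array had little weight in the choice of members, but it enters the means and the tests.

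The highest score belonged to ASMM9PARTA013872, which stood out from a low level at all other stages. Its log2 signal was 10.42, 9.60 and 10.18 in the E15.5 arrays, and the 15 arrays of the other stages lay between 4.16 and 5.77. Its score of 4.85 is a 28.9-fold ratio to the P21 median. All its other stage medians lay in the lowest 25% of probes, where the size of a fold and the order of stages are uncertain. The E15.5 arrays of this probe had an SD of 0.42, and the lowest of them lay 3.83 above the highest array of any other stage.

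ASMM9PARTA030276 followed with a score of 4.79 and had the widest separation of single arrays. It was at 11.15, 11.02 and 11.26 at E15.5, against 6.16, 6.58 and 6.36 at P7, the next highest stage. At E12.5 it was at 4.28, 4.69 and 3.95. Its lowest E15.5 array lay 4.44 above the highest of the 15 arrays of other stages, so nothing overlapped. ASMM9PARTA024806 was at 10.34, 9.95 and 10.17 at E15.5, and had its next highest median at E12.5 with 5.40, 5.70 and 5.53. Its P7 arrays were scattered at 4.53, 6.27 and 5.13.

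The next members reached higher E15.5 levels from higher levels elsewhere. ASMM9PARTA014436 was at 12.74, 12.75 and 12.69 at E15.5 and its means elsewhere lay between 7.61 ± 0.53 at P21 and 8.06 ± 0.43 at P7 (SD, n = 3). The other stages of this probe thus differed by less than the SD of E12.5, which was 0.86. ASMM9PARTA031466 was at 12.34, 12.07 and 12.20 at E15.5, and its means were 7.76 ± 0.36 for E12.5, 7.24 ± 0.03 for P7, 6.78 ± 0.03 for P14, 6.73 ± 0.54 for P21 and 6.31 ± 0.18 for the adult (SD, n = 3). Apart from E15.5, its mean was lower at each later stage, but none of these single steps was called in the tests given below.

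ASMM9PARTA019901 differed from these in having its next highest median in the adult. It was at 11.68, 11.59 and 11.61 at E15.5, against 7.09, 7.08 and 7.46 in the adult. Its P7 arrays were at 5.52, 6.55 and 5.07 and its P21 arrays at 4.09, 3.36 and 4.68. The adult arrays lay above all P7, P14 and P21 arrays of this probe. ASMM9PARTA033339 was the dimmest of the 8 highest scores, at 9.41, 9.17 and 9.20 at E15.5, and was lowest at P7 with 3.51, 2.71 and 3.87. ASMM9PARTA028993 was at 11.14, 10.18 and 10.82 at E15.5 and was also lowest at P7, at 4.34, 4.41 and 4.43, with adult arrays at 6.24, 6.48 and 6.86.

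**Figure D1:**
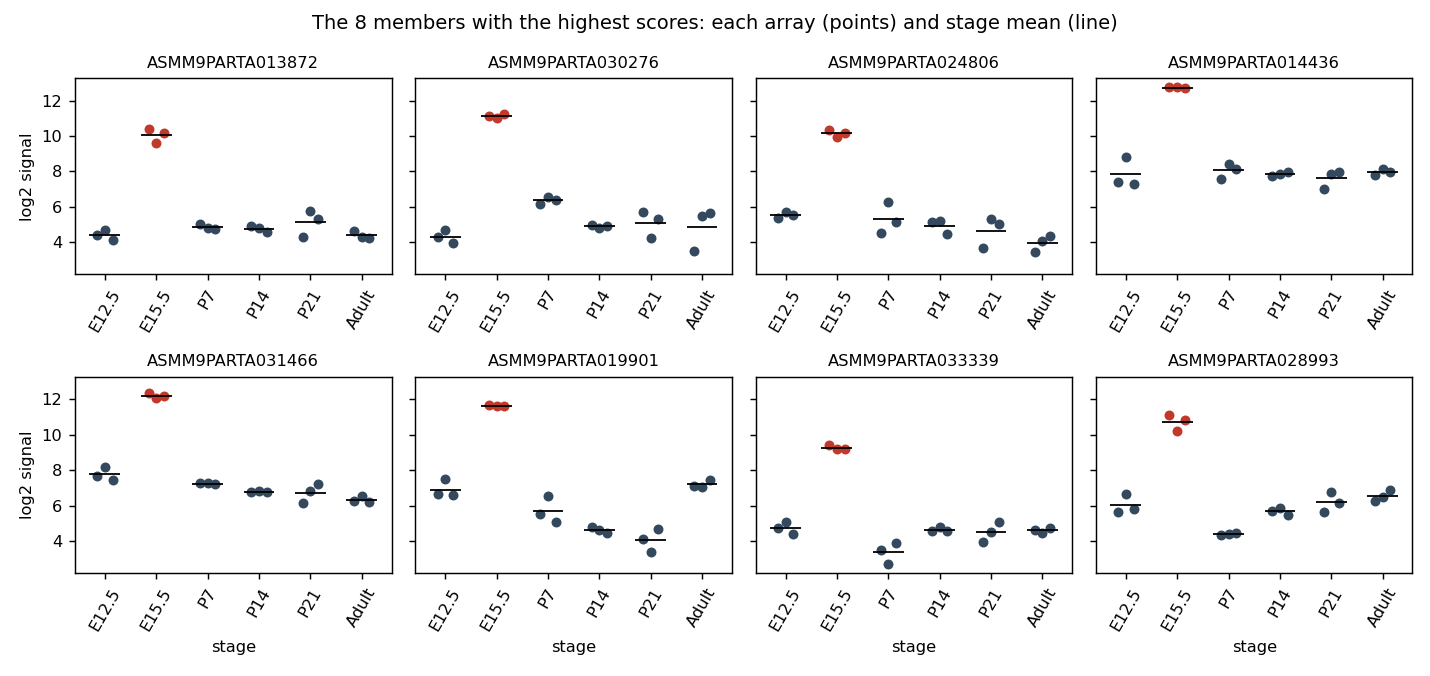
Log2 signal (vertical axis) by stage (horizontal axis) for the 8 members with the highest scores; points are single arrays, short lines are stage means, and E15.5 is in red. In each panel the 3 E15.5 arrays lie above all 15 arrays of the other stages, by 4.44 for ASMM9PARTA030276.

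Scores were spread unevenly over the 200 members. The median was 2.16, a 4.45-fold difference, and the quartiles were 1.98 and 2.77. A score of at least 2 was reached by 143 members, at least 3 (8-fold) by 34 and at least 4 (16-fold) by 13. The last members inside the limit were ASMM9PARTA012616 with 1.76 and ASMM9PARTA011420 with 1.75, and the first outside were ASMM9PARTA011184 with 1.75 and ASMM9PARTA000031 with 1.74. The limit therefore falls within a dense run of scores. These scores chose the members and are given as a description, with no test.

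At E15.5 the members were moderately bright to very bright, and elsewhere most were in the middle or lower part of the array. Their E15.5 medians ran from 9.03 to 14.77 with a median of 10.81, at a median percentile of 78.1 among all probes. The median percentile was 47.5 for E12.5, 50.6 for P7, 38.9 for P14, 33.1 for P21 and 34.0 for the adult. No member lay in the lowest 25% of all probes at E15.5 (0 of 200), which the minimum of 9 fixed, as that range ended at 6.45. The score also required lower levels at the other stages, so these contrasts with E15.5 are a description. At the other stages the lowest 25% of all probes held 30 members for E12.5, 23 for P7, 54 for P14, 78 for P21 and 68 for the adult. No detection flag was available, so a level in that range has no stated limit of detection and a difference from it may be understated.

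The brightest members were not those with the highest scores. ASMM9PARTA011810 had the highest E15.5 median and was at 14.77, 14.28 and 14.82, against 12.94, 13.04 and 12.73 at P7, its next highest stage. It averaged 12.60 ± 1.05 at E12.5, where replicate 2 was at 13.82, and 9.94 ± 0.17 in the adult (SD, n = 3). ASMM9PARTA010174 was at 14.46, 14.75 and 14.64 at E15.5 and had its next highest level at E12.5, at 12.76, 13.08 and 12.75. Both were bright over several stages, and their scores were 1.83 and 1.89. ASMM9PARTA030735 combined a high level with a high score of 4.04: it was at 14.60, 14.80 and 14.73 at E15.5, against 10.68, 12.09 and 10.66 at E12.5.

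ASMM9PARTA032408 was at 14.08, 14.55 and 14.55 at E15.5 and 12.14, 12.08 and 11.91 at P7, and at E12.5 its replicate 2 was at 12.93 against 10.02 and 10.01 in replicates 1 and 3. ASMM9PARTA048221 was at 13.19, 14.89 and 14.44 at E15.5, with an SD of 0.88, and ASMM9PARTA038646, a dimmer member, averaged 10.44 ± 0.63 (SD, n = 3). ASMM9PARTA048221 and ASMM9PARTA038646 had the largest E15.5 SDs of the members. Over all 200 members the median SD of the 3 E15.5 arrays was 0.11.

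**Figure D2:**
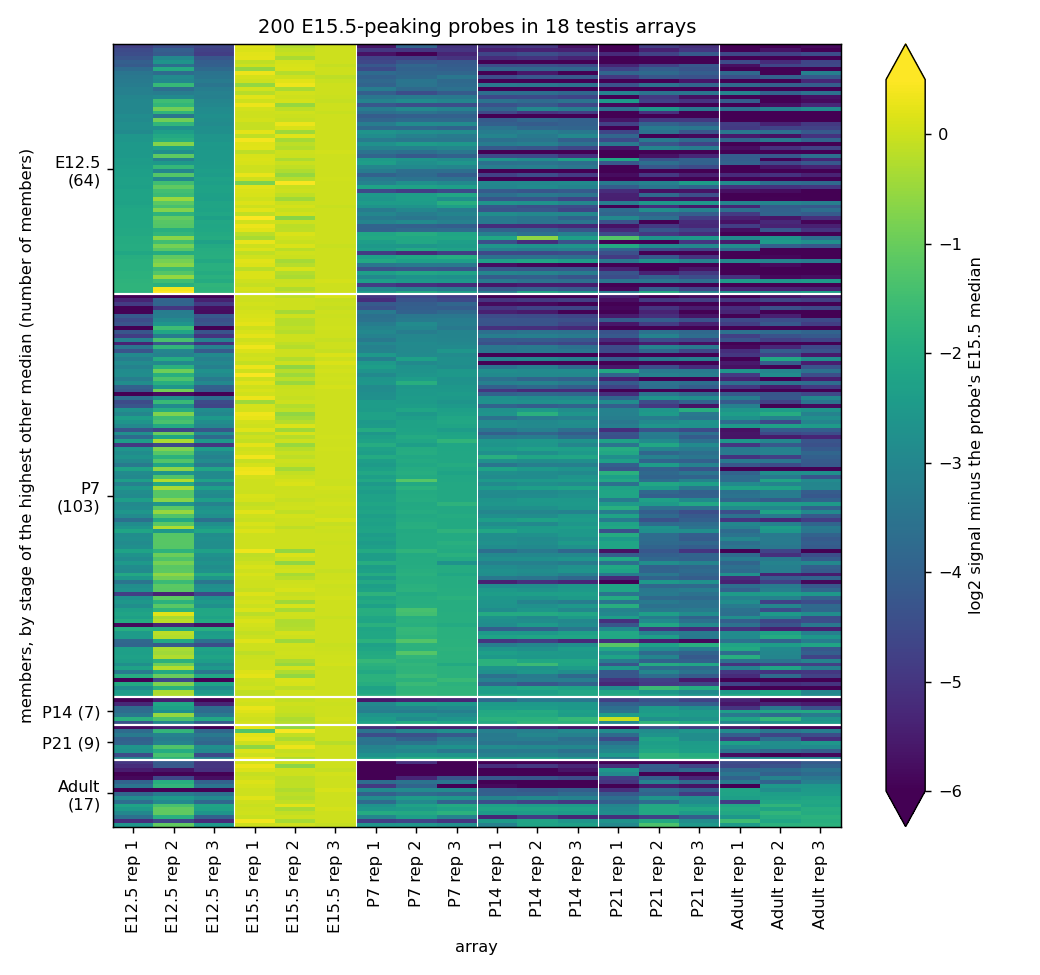
Log2 signal of the 200 members (rows) in the 18 arrays (columns) relative to the E15.5 median of each probe; colour runs from −6 to 0.5 and values beyond are clipped. Rows are grouped by the stage with the highest median outside E15.5 (64 for E12.5, 103 for P7, 7 for P14, 9 for P21 and 17 for the adult) and sorted by score, and E12.5 replicate 2 is lighter than the other E12.5 arrays.

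Outside E15.5 the next highest stage was P7 for 103 members, E12.5 for 64, the adult for 17, P21 for 9 and P14 for 7. With stage means in place of medians the order of the first pair changed, with 100 for E12.5 and 69 for P7. The members whose next highest stage was P7 had a median of 10.92 for E15.5, and of 7.71, 8.39, 7.55, 7.14 and 6.83 for the other stages in order of age. Those whose next highest stage was the adult had a median of 10.19 for E15.5, and of 6.65, 6.57, 5.83, 6.42 and 7.53 for the others, so their lowest level was at P14. The lowest stage was the adult for 93 members, P21 for 62, E12.5 for 26, P14 for 13 and P7 for 6.

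The E15.5 median exceeded the E12.5 median by 1.76 to 7.87, with a median of 2.80, and the P7 median lay 1.75 to 8.47 below it (median P7 minus E15.5 −2.57). For 122 members the difference to E12.5 was the larger. Adult minus E15.5 had a median of −4.16 and reached −10.47.

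Single arrays separated nearly all members, with E12.5 replicate 2 the closest array for most. The lowest E15.5 array was above all 15 arrays of other stages for 195 members, and this held for 7.58% of all probes. Since the rule chose probes for this contrast, the count is a description. The gap was at least 1 for 147 members, and for 197 members without E12.5 replicate 2. That array was the highest outside E15.5 for 136 of the 200. The shares of all probes with such gaps, or with that array highest, were not counted, so these counts are a description too.

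Among the 5 members with overlap, 4 overlapped through E12.5 replicate 2. The widest overlap was in ASMM9PARTA044234, at 9.65, 9.56 and 9.66 at E15.5 against 7.80, 10.29 and 7.89 at E12.5, so that replicate 2 lay above all E15.5 arrays. Its neighbour in number, ASMM9PARTA044235, is the only member next to another in the numbering; it was at 9.46, 8.94 and 9.38 at E15.5 and 6.81, 7.55 and 6.88 at E12.5. ASMM9PARTA007551, a member outside the naming rule and named after its values were seen, overlapped through P21 replicate 1. It was at 9.12, 8.82 and 9.17 at E15.5 and at 9.07, 6.37 and 6.47 at P21.

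E12.5 replicate 2 was above both other E12.5 arrays for 180 of 200 members, and for 63.2% of all probes. It exceeded the mean of replicates 1 and 3 by a median of 1.26 over members (quartiles 0.62 and 1.68). Over all probes the median was 0.34 (quartiles −0.29 and 0.73). The excess was at least 1 for 120 members, a bound above the upper quartile of all probes. The amount was uneven. On a linear scale that sets the mean of E12.5 replicates 1 and 3 at 0% and the E15.5 median at 100%, replicate 2 had a median of 18.6%, with quartiles of 4.68% and 35.4%. A pair of members chosen after their values were seen show the range: ASMM9PARTA043956 was at 10.95 in replicate 2 against 5.76 and 5.44, and ASMM9PARTA039860 at 6.49 against 7.25 and 7.17. What sets this array apart was not tested.

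**Figure D3:**
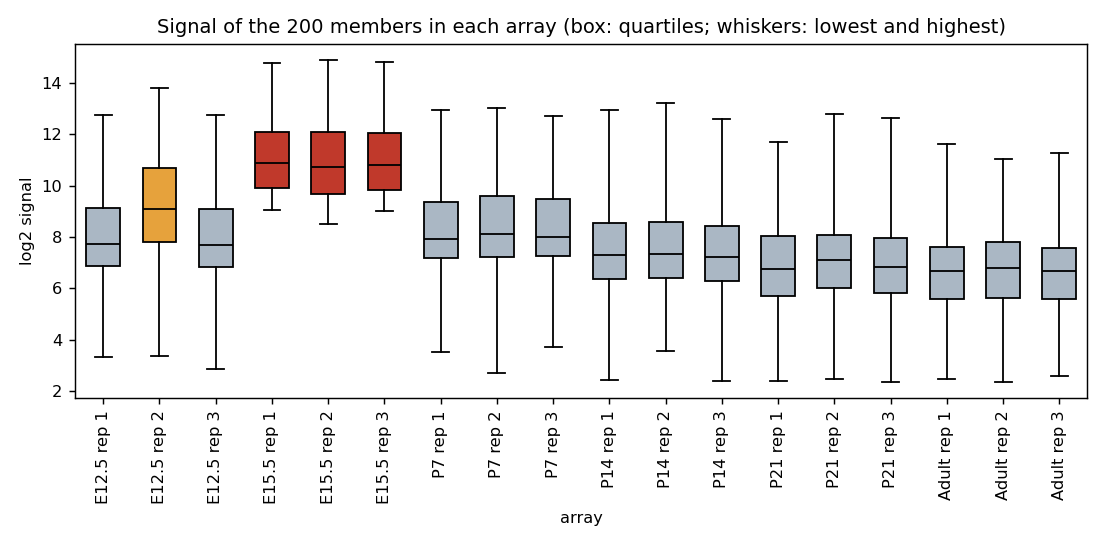
Log2 signal (vertical axis) of the 200 members in each of the 18 arrays; boxes span the quartiles with the median as a line, and whiskers reach the lowest and highest member. The E15.5 arrays (red) have medians of 10.89, 10.73 and 10.79, and E12.5 replicate 2 (orange) is at 9.11 where the other E12.5 arrays are at 7.72 and 7.70.

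The 200 probes held groups that moved almost as one. Probes were linked where the difference between their values had an SD below 0.2 over the 18 arrays, a limit set after the data were seen. Of 19900 pairs 156 were linked, joining 28 members into 3 groups of 19, 6 and 3 probes. The closest pair was ASMM9PARTA012804 and ASMM9PARTA010381, whose difference had an SD of 0.066 (r = 0.999 over 18 arrays that all probes share). Counted as 1 profile each, the 3 groups and the other 172 members make 175 profiles. Whether the grouped probes share sequence or a transcript was not tested.

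The group of 19 had a similar shape down to single arrays, though not every pair in it was linked. Its median was 12.06, 12.08 and 12.02 in the E15.5 arrays, against 9.19, 10.84 and 9.27 in the E12.5 arrays and 9.69, 10.04 and 10.03 in the P7 arrays. It was 9.26, 9.23 and 9.39 in the P14 arrays, 9.90, 8.30 and 8.11 in the P21 arrays and 8.56, 8.78 and 8.03 in the adult arrays. In these medians E12.5 replicate 2 and P21 replicate 1 were each the highest array of their stage. Scores in the group spanned only 1.95 to 2.11, which places its members between ranks 108 and 162. The group of 6, at a median of 10.03, 10.06 and 10.09 at E15.5, included both of the last members inside the limit, and in it E12.5 replicate 2, at 9.77, nearly reached the E15.5 level. The group of 3 was at 9.45, 9.46 and 9.41 at E15.5 and 7.16, 9.11 and 7.22 at E12.5.

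The grouped probes also lay close together in the numbering. All 28 had numbers from 10000 to under 15000. That range held 46 of the 200 members, 107 of the 659 probes that passed the minimums (16.2%) and 9.85% of all ASMM9PARTA probes. What the order of the numbers stands for is not given in the sources used here.

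**Figure D4:**
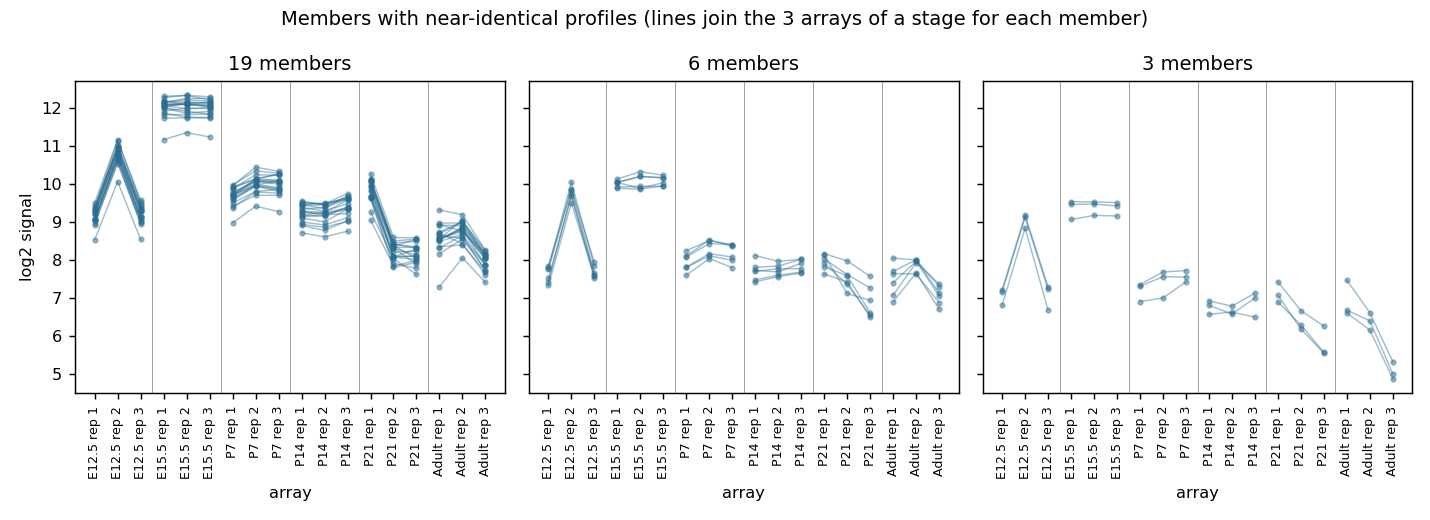
Log2 signal (vertical axis) in the 18 arrays (horizontal axis) for the members of the 3 groups of near-identical profile, 1 panel per group; points are arrays and lines join the 3 arrays of a stage for each member, whose order has no meaning. In the group of 19 the median is 10.84 in E12.5 replicate 2 and 9.90 in P21 replicate 1, above the other arrays of those stages.

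To see the E15.5 level in arrays that the choice had not used, the rule was applied again without each E15.5 array in turn. Without replicate 1 it chose 200 probes, 184 of them members, and in 194 of these the left-out array was above all 15 arrays of other stages. Without replicate 2, 181 were members and the left-out array was above in 186. Without replicate 3, the numbers were 185 and 191. Among all ASMM9PARTA probes the same array was above those 15 arrays in 13.8%, 13.5% and 12.7%. The 15 arrays of other stages did enter each choice, which kept those stages low. These counts are therefore partly set by the rule and are a description. The left-out array exceeded the highest other stage median by a median of 2.25, 2.10 and 2.18, close to the median scores of 2.13, 2.30 and 2.22 in the arrays used, and lay below it in single cases, down to −2.61.

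Differences among the other 5 stages were tested with limma over all 37820 probes. Calls required an adjusted p (Benjamini-Hochberg) under 0.05 together with a log2 change of 1 or more in size. The rule used the levels of these stages too, since it keeps out any probe that comes near or above its E15.5 level at another stage. Probes such as the 2129 that met the minimums for the adult cannot be members but are counted among all probes. The shares of members and of all probes are therefore partly set by the rule and are given side by side as a description. The comparisons share stages and are not independent of each other.

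Between P7 and E12.5, on either side of the E15.5 peak, 16 members were higher at P7 and 23 lower. Of all probes 16.0% were called, 9.58% higher and 6.40% lower. The largest rise was in ASMM9PARTA006316, at 11.23, 11.48 and 11.55 at P7 against 6.35, 8.20 and 6.45 at E12.5. It rose by 4.42 (SE 0.43, limma adjusted p = 2.74e-06), and with 13.99 at E15.5 it stayed 2.51 below its peak. ASMM9PARTA020758 rose by 4.22 to 11.77, 11.76 and 11.96 at P7, against 6.84, 9.03 and 6.95 at E12.5.

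Other members were lower at P7 than before the peak. ASMM9PARTA036757 was at 8.20, 7.98 and 7.85 at P7 against 11.27, 11.18 and 11.32 at E12.5 and fell by 3.25 (SE 0.70, limma adjusted p = 0.00373). ASMM9PARTA020687 fell by 2.95, to 7.88, 7.54 and 7.91 at P7 against 10.62, 10.77 and 10.78 at E12.5. In both the E12.5 arrays agree closely, replicate 2 included. The balance of the 200 turned without E12.5 replicate 2, with 33 higher and 16 lower, where 13.7% and 11.5% of all probes were called. Without replicate 1 it was 12 higher and 24 lower, where 7% and 4.22% of all probes were called. Which direction was the more frequent among members thus depended on replicate 2.

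At P14, by when the first germ cells are in meiosis, 53 members had fallen relative to P7 and 6 had risen, and 12.8% of all probes were called. Falls made up 26.5% of members and 6.64% of all probes, and rises 3% of members and 6.21% of all probes. The median change was −0.59 over members and −0.06 over all probes. ASMM9PARTA022398 was at 6.20, 6.01 and 5.50 at P14 against 10.44, 10.27 and 10.24 at P7 and fell by 4.41 (SE 0.41, limma adjusted p = 2.29e-06). ASMM9PARTA022630 fell by 3.88, to 5.50, 4.83 and 4.19 at P14 against 8.96, 8.58 and 8.60 at P7. In both the stages are far apart with no overlap.

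The rises at P14 were few. ASMM9PARTA025747 was at 9.38, 9.60 and 9.21 at P14 against 7.00, 7.15 and 6.81 at P7 and rose by 2.41 (SE 0.26, limma adjusted p = 9.67e-06). ASMM9PARTA017613 rose by 1.90, to 7.00, 7.47 and 7.38 at P14 against 5.22, 5.42 and 5.50 at P7, and P14 was its highest stage after E15.5. All 53 falls lay outside the groups of near-identical profile. The number called was 59 in all, 37 without P7 replicate 2 and 39 without P14 replicate 3. In each of these fits 33 members were lower, where 4.87% and 4.96% of all probes were lower.

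At P21, by when the first round spermatids have formed, 33 members had fallen relative to P14 and 5 had risen. Of all probes 23.5% were called, and 14.3% were called lower and 9.20% higher, and of members 16.5% fell and 2.5% rose. ASMM9PARTA046598 fell by 2.93 (SE 0.49, limma adjusted p = 0.000315), to 4.62, 2.48 and 2.38 at P21 against 6.10, 6.30 and 5.87 at P14. ASMM9PARTA036757 fell by 2.69 to 6.16, 3.51 and 4.82, against 7.46, 7.55 and 7.55. The P21 arrays were scattered in both. In P21 replicates 2 and 3 ASMM9PARTA046598 had exactly the values of another member, ASMM9PARTA022630. No limit of detection is stated for such low values, so the size of the fall of ASMM9PARTA046598 is uncertain.

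Among the rises at P21, ASMM9PARTA009769 had been lowest at P14. It was at 5.94, 7.82 and 7.18 at P21 against 4.16, 3.58 and 4.26 at P14 and rose by 2.98 (SE 0.50, limma adjusted p = 0.000294). ASMM9PARTA028062 rose by 2.70 to 7.64, 6.09 and 6.42 at P21, against 3.94, 3.57 and 4.54 at P14. Without P21 replicate 1, 41 members were lower and 8 higher, where 16.8% of all probes were lower and 9.99% higher. Without that array and E12.5 replicate 2, 55 members (27.5%) were lower and 9 (4.5%) higher, where 18.5% of all probes were lower and 10.3% higher.

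Between the adult and P21, 33 members fell and 19 rose, where 30.9% of all probes were called, 20.9% as falls and 10% as rises. Of members 16.5% fell and 9.5% rose. The median change was −0.31 over members and −0.33 over all probes. After quantile normalization again these medians were −0.12 and −0.13. The fall of ASMM9PARTA000684 was the largest. It was at 2.47, 3.98 and 4.34 in the adult against 9.96, 11.26 and 10.85 at P21, and fell by 7.09 (SE 0.42, limma adjusted p = 3.55e-09). This member was at 10.51 to 11.06 at P7 and P14, so the adult was the only stage at which it was low. ASMM9PARTA021308 fell by 3.96 to 6.32, 5.58 and 6.22 in the adult, against 9.59, 10.29 and 10.11 at P21.

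Some members came back in the adult from very low levels. ASMM9PARTA022630 was at 6.51, 6.80 and 5.94 in the adult against 2.39, 2.48 and 2.38 at P21 and rose by 4.0 (SE 0.28, limma adjusted p = 2.15e-08). ASMM9PARTA042139 rose by 3.88 to 6.06, 7.53 and 6.16 in the adult, against 2.39, 3.02 and 2.69 at P21. At E15.5 ASMM9PARTA022630 was at 11.46, 11.46 and 11.60, and ASMM9PARTA042139 at 11.53, 11.61 and 11.74. The P21 median of ASMM9PARTA022630, 2.39, was the lowest of any member, and no limit of detection is stated for such values. In P21 replicate 1 ASMM9PARTA022630 and ASMM9PARTA042139 had the same value, 2.39, so the size of both rises is uncertain. Without P21 replicate 1, 42 members (21%) were lower and 15 (7.5%) higher, where 20.3% of all probes were lower and 9.06% higher.

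Over the whole span, 127 members were lower in the adult than at E12.5 and 14 were higher, where 58.0% of all probes were called. Falls were 63.5% of members and 34.1% of all probes, and rises 7% of members and 23.9% of all probes, which include the probes highest in the adult that the rule keeps out. The median change was −1.39 over members and −0.29 over all probes, and −1.21 and −0.04 after quantile normalization again. ASMM9PARTA036757 fell by 7.68 (SE 0.70, limma adjusted p = 9.09e-08), to 5.77, 2.38 and 2.58 in the adult against 11.27, 11.18 and 11.32 at E12.5. ASMM9PARTA000684 fell by 6.71, with E12.5 arrays at 9.99, 10.97 and 9.95. Adult replicate 1 of ASMM9PARTA036757 lay more than 3 above the other adult arrays and still far below E12.5. Its value in adult replicate 2, 2.38, was the same as that of another probe, MM9LINCRNAEXON10860-_P1. No limit of detection is stated for such values, so the size of the fall of ASMM9PARTA036757 is uncertain.

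The largest of the 14 rises were in members dim at E12.5. ASMM9PARTA007122 was at 7.24, 6.64 and 6.97 in the adult against 3.32, 3.36 and 2.87 at E12.5 and rose by 3.76 (SE 0.29, limma adjusted p = 1.03e-08). ASMM9PARTA017338 rose by 3.59 (SE 0.94, limma adjusted p = 0.00315), to 9.01, 8.49 and 8.76 in the adult against 4.62, 6.30 and 4.58 at E12.5. At P21 its replicate 1 was at 9.62, above all adult arrays, and the other P21 arrays lay more than 4 log2 units lower. In the group of 19, 18 probes were called lower in the adult than at E12.5, and changes over all 19 ran from −1.47 to −1.03. The median of that group was 9.19, 10.84 and 9.27 in the E12.5 arrays and 8.56, 8.78 and 8.03 in the adult arrays. E12.5 replicate 2 thus enlarged these changes, and the calls of the group without that array were not counted. Outside the 3 groups 105 of 172 members (61.0%) were lower and 14 (8.14%) higher, beside 34.1% and 23.9% of all probes. Without E12.5 replicate 2, 89 of the 200 members (44.5%) were lower and 15 (7.5%) higher, where 34% of all probes were lower and 25.6% higher.

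**Figure D5:**
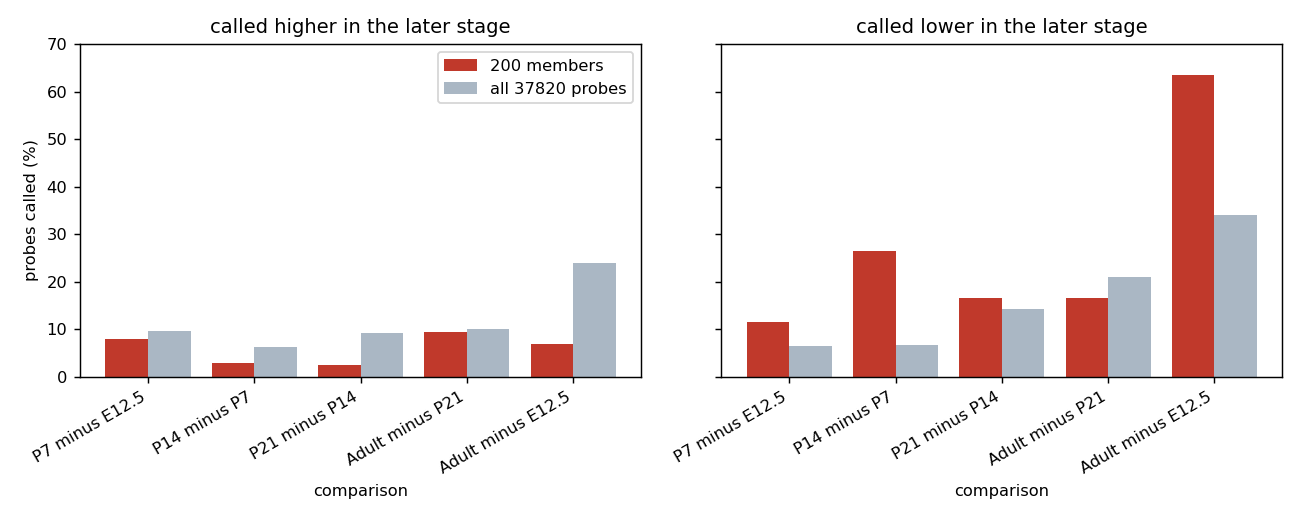
Share of probes (vertical axis, %) called higher (left) or lower (right) in the later stage in each of 5 comparisons among stages other than E15.5, for the 200 members (red) and all 37820 probes (grey). Falls from P7 to P14 were called in 26.5% of members and 6.64% of all probes, and falls from E12.5 to the adult in 63.5% and 34.1%; the rule itself sets part of such differences.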

How the data were processed

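The authors deposited 1 value per probe and array, read here as log2 because of their range. Per the submitters' processing notes Agilent Feature Extraction 11.0.1.1 was used. Log base, normalization and probe filter: not given in the sources used here. No identifier matched the gene tables (0 of 37820). Values were used as deposited, with no filter. The number of arrays limits the precision.

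Members were found by the rule in the report. All 18 arrays entered a single limma fit (version 3.58.1, under R 4.3.3, functions lmFit and eBayes) in which every stage had its own mean, with 12 residual and 3.20 prior degrees of freedom, and 5 comparisons without E15.5 were tested. Plots were drawn with matplotlib 3.10.9. Members, lists and naming rules were chosen with earlier results of these data known. Named were the highest scores and E15.5 levels, the highest score by next highest stage, the 2 largest called changes each way per comparison, the edges of the rule, the widest gaps and E15.5 spreads, and neighbours in number. Alternatives covered the scaling, prior, filter, threshold, replicate block, summary of a stage and left-out arrays.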

Additional observations from a re-analysis of the deposited data

How the results depend on the processing

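The reported counts, medians and scores were recomputed 271 times under the alternatives, and 257 of these values stayed within set limits. The limit was 1.5 times for a count of members chosen again or of calls in both directions together. For a median or score it was 1 SD of the E15.5 arrays. The score of a probe with 1 E15.5 array left out cannot pass that SD. The tally is therefore partly fixed by its limits and is no measure of how stable the results are. Counts in 1 direction moved by more where E12.5 replicate 2 was left out: 33 members were then higher at P7 than at E12.5 and 16 lower, against 16 higher and 23 lower with all arrays. Of all probes 13.7% were then higher and 11.5% lower, against 9.58% and 6.40% with all arrays. At P21 relative to P14, 8 members were higher without P21 replicate 1 and 3 of the 180 left without the dimmest 25% of probes. With all arrays and probes it was 5. Of all probes tested, 9.99%, 10.7% and 9.20% were higher in that order. No score of a named probe changed its sign over 144 values, which ran from 0.777 to 1.09 times the reported score. Of these values 8 moved by more than that SD, all of them after quantile normalization again. The values with an E15.5 array left out could not do so whatever the data, since the SD came from the same arrays. The number of members called from P7 to P14, 59, was 37 at an adjusted p below 0.01 and ran from 37 to 49 with single arrays left out. At that threshold 3.93% of all probes were higher and 4.52% lower. With the fewest members called (without P7 replicate 2) these shares were 4.2% and 4.87%. They were 5.57% and 5.8% with the most (without P7 replicate 1). From P14 to P21 it was 38, ran from 31 to 49 with single arrays left out, and was 64 without E12.5 replicate 2 and P21 replicate 1 together. Without that pair of arrays 10.3% of all probes were higher and 18.5% lower. With 31 members called (without P14 replicate 2) these shares were 8.47% and 12.2%. They were 9.99% and 16.8% with 49 called (without P21 replicate 1). Of the 200 members, 138 to 200 were chosen again under every alternative run. The fewest were at an E15.5 minimum of 10, a number fixed in advance, since just 138 members had an E15.5 median that high. With no minimum 166 were chosen again, with stage means 177, and with single arrays left out 169 to 200. The median score ran from 2.02 to 2.22 with single arrays left out and was lowest without E12.5 replicate 1 or 3, when replicate 2 has equal weight with the other array. When replicates 1 and 3 of E12.5 were treated as 1 averaged array, an alternative chosen after seeing the data, 12 members were higher and 23 lower at P7 than at E12.5. Of all probes 6.94% were then higher and 4.2% lower. With the replicate number as a block, 41, 59, 40, 55 and 142 members were called in the order of the 5 comparisons, and no count moved by over 1.5 times. Of all probes 9.83%, 6.5%, 9.23%, 10.4% and 24% were then higher. Those lower were 6.84%, 6.74%, 14.8%, 21.5% and 34.3%. The labels do not say that numbers pair the samples; deviations of same-numbered arrays from their stage means correlated between −0.37 and 0.50 (median 0.057), and 10 of 18 arrays correlated best with their own number. Without detection flags, levels in the lowest 25% of the array have no stated limit of detection.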

Other observations

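Probes of the other identifier families also peaked at E15.5. The same minimums (a score of at least 1 and an E15.5 median of at least 9) were passed by 26 of 2480 probes with lincRNA in the identifier (1.05%), 9 of 581 sequence accessions (1.55%) and 2 of 527 CUST probes (0.380%), against 659 of 34232 ASMM9PARTA probes (1.93%). These shares carry no test. The highest score among lincRNA probes belonged to MM9LINCRNAEXON11199-_P1, at 12.65, 12.34 and 12.46 at E15.5 against 9.41, 9.51 and 9.61 at P7, its next highest stage. Long intergenic noncoding RNAs are transcripts that do not overlap protein-coding genes and are not known to be translated.

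The CUST probe CUST_93_PI426409190 followed the group of 19 near-identical members. It was at 12.28, 12.33 and 12.30 at E15.5 and 9.46, 11.10 and 9.57 at E12.5, and its difference from the mean profile of that group had an SD of 0.060 over 18 arrays. Of all 37820 probes 19 lay within 0.2 of that profile, 18 of them members. AI181567_P1, a sequence accession, was just outside at 0.24. Whether these probes share sequence was not tested.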
